A study of Mus musculus with 6 samples.

Results

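The genes described here encode ion channels of the muscle fiber membrane and an adhesion protein that gathers channels. They are the sodium channel gene Scn4a, the chloride channel gene Clcn1, the potassium channel genes Kcnj2, Kcnj11 and Kcnn3, and the adhesion gene Cntnap2. These 6 genes were taken by their listed symbols, joined by gene identifier to the count table, and make up 6 of its 45777 genes and 6 of the 16188 genes tested. They were picked with their difference between BML-260 and vehicle already known, so their values in that contrast are given as a description, with no p value. The sodium pump genes were not among the 6 and are described with the partner lists.

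The RNA-Seq libraries came from the tibialis anterior (TA), a fast muscle of the lower leg, in male C57BL/6J mice labelled as aged 24 months. The vehicle group (3 mice) received 5% DMSO with 5% Tween 80, and the BML-260 group (3 mice) received 5 mg/kg BML-260. Both were given by daily intraperitoneal injection for 1 month. BML-260 is a small molecule reported to inhibit the phosphatase DUSP22. The authors state that its level in muscle may be too low to inhibit the enzyme, and that off-target effects remain possible. Each library came from the total RNA of 1 mouse, and there was no young or uninjected group among the samples analysed. The comparison asks how the aged muscle's RNA differs after treatment with BML-260.

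The libraries held between 39522890 and 56998875 counts. Vehicle replicate 3 stood apart, with a first principal component of 33.9 against values between -10.7 and -2.43 in the other 5 libraries. Its summed Schwann cell markers (9 of 9 genes highest in this library) reached 6017 normalized counts against 1883 to 2727 elsewhere, its slow fiber markers 16777 against 3446 to 5776, and its macrophage markers 9166 against 2152 to 3804. Fast and general muscle fiber genes marked all 6 libraries as skeletal muscle: the 10 fiber markers summed to between 6612040 (vehicle replicate 3) and 9385440 normalized counts, and 0 of the 10 met the threshold used below. Of these 10, 7 were lowest in vehicle replicate 3, among them Pvalb (49149 against 233445 to 363256 elsewhere), and 1 was highest there. The 6 fast fiber markers summed to 2488860 in that library against 3308630 to 4282060 elsewhere, with 4 of the 6 lowest in it and 1 highest. These are whole muscles, so fewer cells of a type and less RNA per cell cannot be told apart.

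A muscle fiber fires when voltage-gated sodium channels open, and the action potential then runs along the surface and into the transverse tubules. In skeletal muscle the resting membrane is held steady mainly by chloride conductance, together with inward rectifier potassium channels, while the sodium-potassium pump restores the ion gradients. Loss-of-function or gain-of-function mutations of these channels cause the myotonias and periodic paralyses, in which fibers fire repeatedly or fail to fire.

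In the RefSeq annotation of GRCm38.p6, Scn4a spans chr11:106317545-106365559, Kcnj2 chr11:111066164-111076825, Clcn1 chr6:42284851-42315764 and Cntnap2 chr6:45060061-47301393. Kcnj11 spans chr7:46097123-46100952 and Kcnn3 chr3:89520164-89672494. The span of Cntnap2 (2241333 bases) contains 10 other annotated genes, of which 1, the pseudogene Rbpj-ps3, had enough counts to be tested, and Clcn1 shares its span with Fam131b, which had at most 36 counts in a library. How reads in shared stretches were assigned was not given in the sources used here.

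The 250 bases before a transcript start were read for 5 of the 6 genes from a RefSeq table of GRCm38.p6 to see whether the genes share a muscle or stress-response sequence there. The windows below are those of the 3 genes whose normalized counts did not overlap between the groups (Scn4a, Clcn1 and the upstream start of Cntnap2), and of Kcnj2, whose counts did overlap. They are written 5′ to 3′ on the gene's strand, and capitals mark a match to a searched motif. For Scn4a and Clcn1 the transcript start used lies inside the gene's span given above, so these windows do not stand before the outermost start. The windows lie at chr11:106349391-106349640 (minus strand), chr6:42286435-42286684 (plus), chr6:45059811-45060060 (plus) and chr11:111065914-111066163 (plus).
Scn4a: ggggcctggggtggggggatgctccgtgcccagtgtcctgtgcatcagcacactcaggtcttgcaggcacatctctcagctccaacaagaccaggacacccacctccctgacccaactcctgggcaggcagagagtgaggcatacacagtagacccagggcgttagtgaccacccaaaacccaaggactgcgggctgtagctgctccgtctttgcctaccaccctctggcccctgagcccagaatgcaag
Clcn1: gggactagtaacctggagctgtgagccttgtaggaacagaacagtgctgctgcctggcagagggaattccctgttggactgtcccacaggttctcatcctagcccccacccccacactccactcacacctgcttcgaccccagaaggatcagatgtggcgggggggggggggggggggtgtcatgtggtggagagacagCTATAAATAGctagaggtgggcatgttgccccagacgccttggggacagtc
Cntnap2: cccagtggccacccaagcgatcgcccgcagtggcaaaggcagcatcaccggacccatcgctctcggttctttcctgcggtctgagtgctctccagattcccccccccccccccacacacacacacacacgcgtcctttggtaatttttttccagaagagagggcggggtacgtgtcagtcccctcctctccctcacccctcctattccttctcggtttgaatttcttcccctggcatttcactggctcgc
Kcnj2: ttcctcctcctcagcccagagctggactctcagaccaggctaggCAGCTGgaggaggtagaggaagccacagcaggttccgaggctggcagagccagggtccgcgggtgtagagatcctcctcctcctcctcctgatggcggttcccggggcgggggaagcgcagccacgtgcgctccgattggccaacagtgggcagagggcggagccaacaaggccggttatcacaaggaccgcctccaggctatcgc

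A search on both strands covered 4 motifs: CAGCTG (an E-box form bound by myogenic factors), a MEF2 form (CTA and TAG with any 4 bases between them), TGANTCA (the AP-1 form bound by FOS and JUN) and TGTTTAC (a forkhead form). The Clcn1 window held 1 match to the MEF2 form, CTATAAATAG, beginning 51 bases before the start, a motif found in 3.2% of all 32851 windows. The Kcnj2 window held 1 CAGCTG, 206 bases before the start, found in 13.0% of all windows. The windows of Scn4a and Kcnn3 and both windows of Cntnap2 held none of the 4 motifs. TGANTCA (6.75% of all windows) and TGTTTAC (3.17%) were in none of the 6 windows, and no searched motif was found in more than 1 gene. With so few genes and motifs this uncommon, nothing is read from the lack of a shared motif. The G and C content of the 6 windows ran from 45.2% to 65.6%, against a median of 52.4% over all windows.

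Levels between genes were compared in TPM, which is scaled for transcript length. Scn4a was the most abundant of the 6 genes, with a median of 110 TPM over the 6 libraries (range 87.4 to 128), above 96.0% of the genes in the TPM tables. Kcnj11 (median 44.2 TPM), Clcn1 (38.9 TPM) and Kcnj2 (36.4 TPM) followed, and their ranges overlapped, so no order among these 3 held in every library. Kcnn3 (median 2.31 TPM) and Cntnap2 (1.48 TPM) were far lower, at the 42.6 and 33.5 percentiles of the listed genes. Scn4a lay above Kcnj11, and Kcnj2 above Kcnn3, in 6 of 6 libraries with no overlap of their ranges, while Kcnn3 was above Cntnap2 in only 3 of 6.

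**Figure D1:**
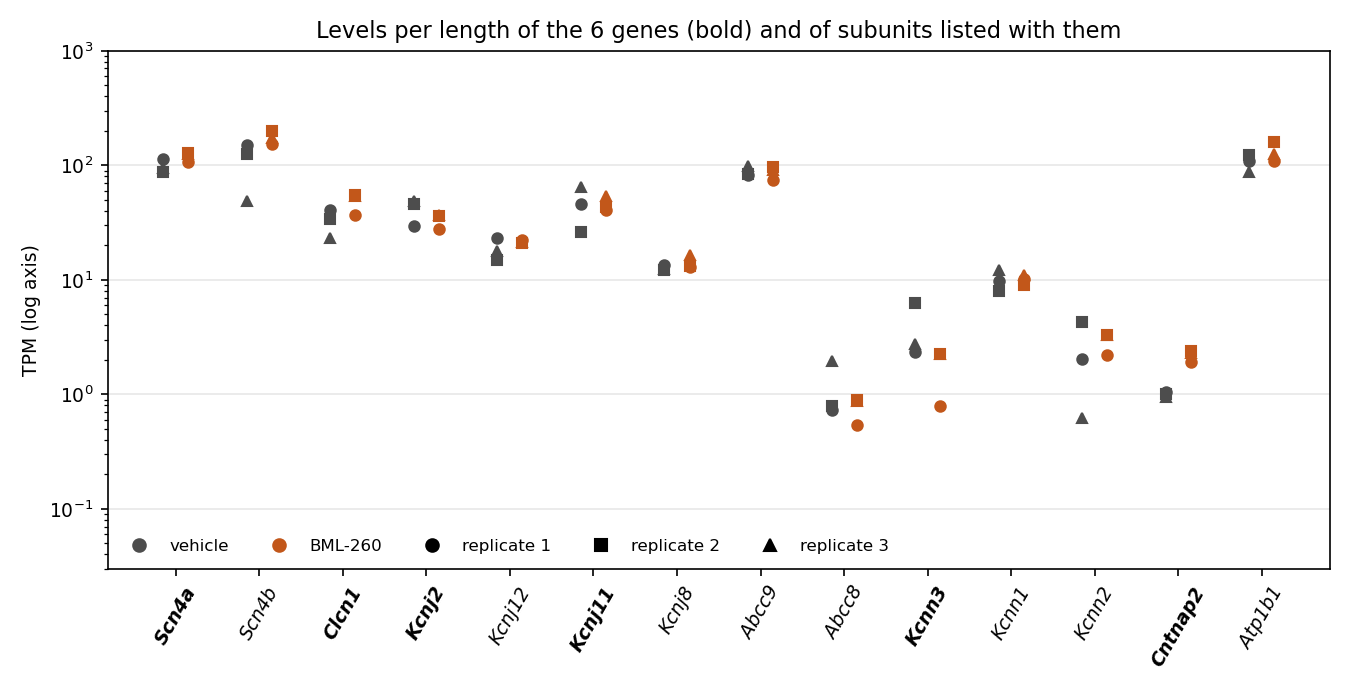
TPM (log axis) of the 6 genes, in bold, and of subunits listed with them, in each vehicle library (grey) and BML-260 library (orange), with the symbol giving the replicate number. Scn4a sits between 87.4 and 128 TPM in all 6 libraries, whereas Kcnn3 runs from 0.785 to 6.33 TPM, with its highest value in vehicle replicate 2.

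Across the 6 genes, 4 log2 fold changes were above 0 and 2 below, where 49.5% of all tested genes were above 0. Their median was 0.32, against -0.0039 over all tested genes. The threshold used throughout, a 1.3-fold or larger difference at an unadjusted p below 0.05 in edgeR's quasi-likelihood test, is applied to the partner and marker lists and not to these 6 genes. It was met by 5.75% of all tested genes (931 of 16188, with 145 higher and 786 lower). Normalized counts, which are counts divided by a size factor for the library, did not overlap between the groups for 3 of the 6 genes (Scn4a, Clcn1 and Cntnap2, all higher with BML-260), compared with 12.1% of all tested genes in either direction, 5.43% higher and 6.7% lower. In TPM 2 of the 6 did not overlap, Cntnap2 (higher) and Kcnn3 (lower), compared with 9.61% of the genes in those tables that were tested. Because these genes were picked on this contrast, nothing is read from the counts.

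**Figure D2:**
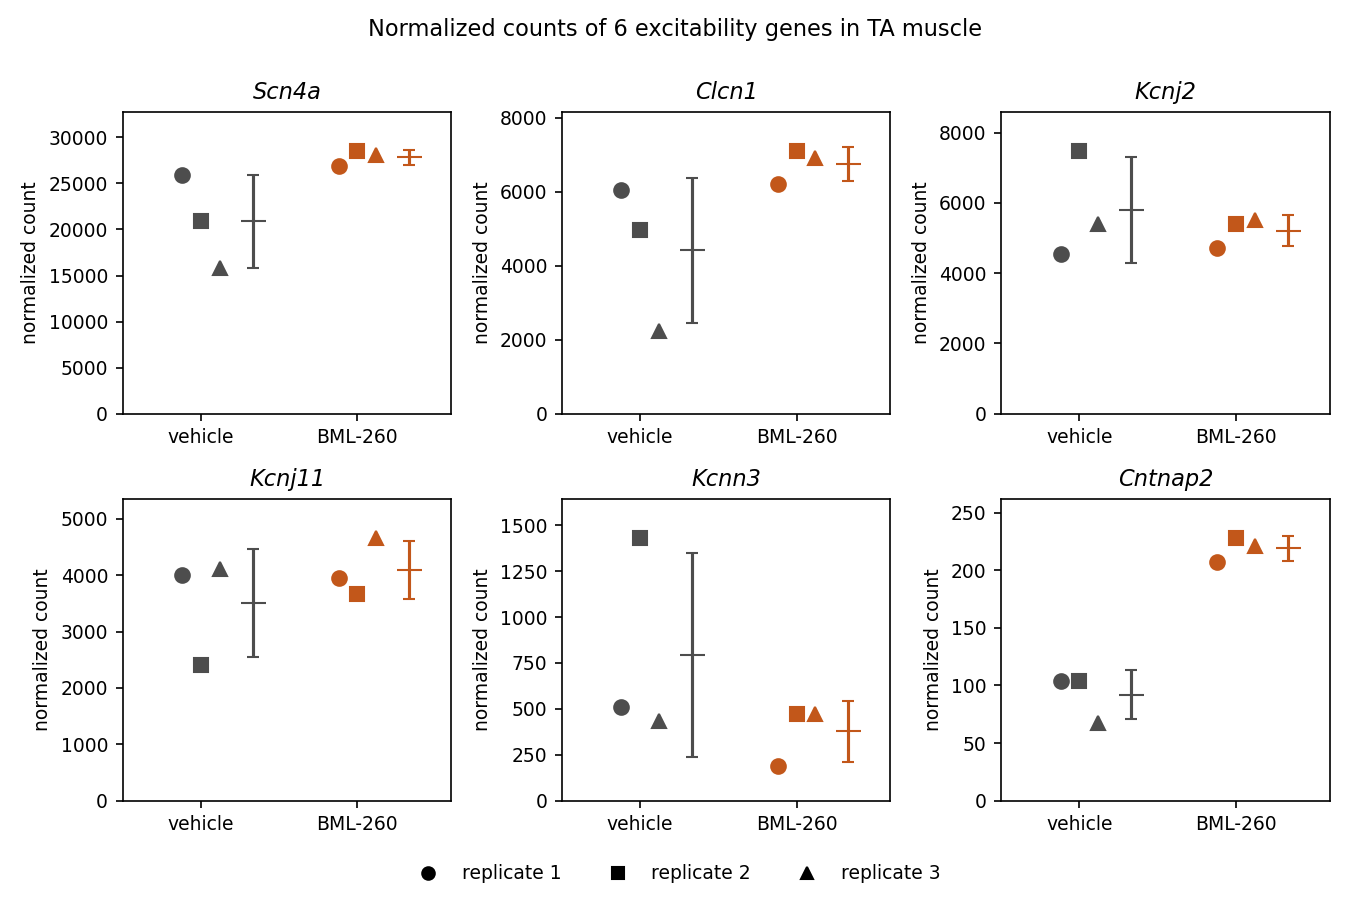
Normalized counts (linear axis from 0) of the 6 genes in each library, with the mean and SD of 3 libraries beside the points. The BML-260 points lie close together and above all vehicle points for Scn4a, Clcn1 and Cntnap2, and vehicle replicate 2 lies apart from the others for Kcnn3 (high) and Kcnj11 (low).

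Scn4a encodes Nav1.4, the voltage-gated sodium channel of adult skeletal muscle that drives the action potential. Its normalized counts were 25874, 20943 and 15785 in vehicle replicates 1, 2 and 3, and 26871, 28527 and 28063 in BML-260 replicates 1, 2 and 3. The BML-260 libraries were all higher, but the lowest of them was near the highest vehicle library, and vehicle replicate 3 was the lowest of all. The log2 fold change was 0.41 (SE 0.21), a change from 20867 ± 5045 to 27821 ± 854 (mean ± SD, n = 3 each). Without vehicle replicate 3 it was 0.24, and in TPM the groups overlapped, at 112.8, 87.4 and 95.5 in vehicle and 107.4, 128.1 and 125.8 with BML-260.

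Of the 11 other sodium channel genes listed, 6 were tested, and 2 met the threshold, both lower with BML-260: Scn3a (log2 fold change -1.36, SE 0.43) and Scn3b (-1.06, SE 0.44). Scn3a is an alpha subunit best known from the developing brain and Scn3b a beta subunit, and their edgeR adjusted p values were 0.701 and 0.788. Scn3a met the threshold in 14 of the 15 alternatives tried and came to -1.004 without vehicle replicate 2, where it no longer met it. Scn3b met it in 9 of 15, and came to -0.41 without vehicle replicate 3. The beta subunit Scn4b, the gene with the most TPM in this list, did not meet it, with a log2 fold change of 0.74 (SE 0.45). It had 20255, 17544 and 4750 normalized counts in vehicle and 22783, 26340 and 22520 with BML-260, so its vehicle replicate 3 was low as it was for Scn4a. Scn7a, the next by TPM, had a log2 fold change of -0.57 (SE 0.34).

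Clcn1 encodes ClC-1, the chloride channel that carries most of the resting conductance of the fiber and whose loss causes myotonia congenita. Its normalized counts were 6039, 4973 and 2223 in vehicle and 6220, 7103 and 6906 with BML-260. The groups did not overlap, although vehicle replicate 1 and BML-260 replicate 1 were close, and vehicle replicate 3 was again the lowest. The log2 fold change was 0.61 (SE 0.32), and it was 0.29 without vehicle replicate 3 and 0.90 without vehicle replicate 1. In TPM the groups overlapped, at 40.8, 34.2 and 23.2 in vehicle and 37.0, 55.0 and 53.4 with BML-260. Clcn1 made up 24.4% to 39.0% of the TPM of the 7 Clcn genes in vehicle and 38.3% to 46.8% with BML-260.

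None of the 17 tested genes of the other chloride channel list (20 genes) met the threshold: 8 log2 fold changes were above 0 and 9 below, with a median of -0.016 and 0 unadjusted p under 0.05 in edgeR (DESeq2 and limma voom each gave 0 at an adjusted p under 0.05). The 3 with the most TPM were Ano5, a membrane protein of the anoctamin family mutated in a limb-girdle muscular dystrophy, and the chloride-proton exchangers Clcn3 and Clcn4. Their log2 fold changes were 0.44 (SE 0.31), 0.15 (SE 0.19) and 0.20 (SE 0.17). Ano5 had 4948 normalized counts in vehicle replicate 3 against 9893 to 13752 in the other libraries, a low value in the same library as for Clcn1.

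Kcnj2 encodes Kir2.1, the inward rectifier that sets the resting potential and is mutated in Andersen-Tawil syndrome, a periodic paralysis with cardiac arrhythmia. Its normalized counts were 4551, 7482 and 5393 in vehicle and 4710, 5407 and 5522 with BML-260. The groups overlapped, with vehicle replicate 2 high and the other 5 libraries within 4551 to 5522. The log2 fold change was -0.16 (SE 0.20), and its sign turned to 0.070 without vehicle replicate 2. Kcnj12, the related inward rectifier Kir2.2, had a log2 fold change of 0.36 (SE 0.23). Kcnj2 accounted for 56.0%, 75.8% and 73.3% of the TPM of this pair in vehicle and 55.4%, 63.4% and 63.2% with BML-260, which overlapped.

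Kcnj11 encodes Kir6.2, the pore of the ATP-sensitive potassium channel, which opens when the fiber's energy runs down. Its normalized counts were 4003, 2405 and 4113 in vehicle and 3946, 3668 and 4661 with BML-260. Vehicle replicate 2 was low, and the other vehicle libraries lay inside the BML-260 range. The log2 fold change of 0.22 (SE 0.22) came to 0.015 when vehicle replicate 2 was left out. Kcnj11 held 68.3% to 84.0% of the TPM of the 2 pore genes Kcnj11 and Kcnj8 in vehicle and 75.9% to 76.7% with BML-260. On the regulatory side, Abcc9 (the SUR2 subunit) held 98.0% to 99.3% of the TPM of the pair Abcc8 and Abcc9 in the 6 libraries, and its log2 fold change was 0.14 (SE 0.17).

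In the list of other inward rectifier and ATP-sensitive channel genes, 7 of 15 were tested, 3 had log2 fold changes above 0 and 4 below, and 0 met the threshold in either direction (0 with an unadjusted p under 0.05 in edgeR, and 0 at an adjusted p under 0.05 in DESeq2 or limma voom). Kcnj1, Kcnj5 and Kcnj9 had no count in any library. Kcnj8, the other ATP-sensitive pore, which is known from vessels, had a log2 fold change of 0.29 (SE 0.19).

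Kcnn3 encodes SK3, a small-conductance calcium-activated potassium channel that is scarce in innervated adult fibers and is known to return in denervated muscle, where it shapes the afterhyperpolarization. Its normalized counts were 510, 1431 and 432 in vehicle and 187, 474 and 469 with BML-260. Vehicle replicate 2 was high and BML-260 replicate 1 low, and the other 4 libraries were between 432 and 510. The log2 fold change was -1.08 (SE 0.51), the mean going from 791 ± 556 to 377 ± 165 (SD, n = 3 each). It came to -0.32 without vehicle replicate 2 and to -1.37 without vehicle replicate 3. In TPM the groups did not overlap, at 2.37, 6.33 and 2.77 in vehicle and 0.785, 2.26 and 2.23 with BML-260, though 2.37 and 2.26 are close.

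Kcnn3 made up 16.6%, 34.1% and 17.9% of the TPM of the 3 small-conductance genes in vehicle and 5.98%, 15.5% and 13.5% with BML-260, and Kcnn1 was the most abundant of the 3 in every library. Kcnn1 and Kcnn2 did not meet the threshold, with log2 fold changes of 0.18 (SE 0.15) and 0.45 (SE 0.60), and Kcnn2 came to -0.032 without vehicle replicate 3. Among the 6 tested genes of 10 in the calcium-activated list, 1 met the threshold, Kcnn4, which encodes the intermediate-conductance channel known from blood cells. Its normalized counts were 23.8, 33.0 and 59.9 in vehicle and 18.1, 6 and 17.1 with BML-260, all lower, with a log2 fold change of -1.50 (SE 0.56, adjusted p 0.788 in edgeR). It met the threshold in 11 of the 14 alternatives that gave it a value, and not without vehicle replicate 3 (-1.04). The macrophage markers, of which 7 of 8 met the threshold and were lower, summed to 3740 to 9166 normalized counts in vehicle and 2152 to 2702 with BML-260. The neutrophil markers, 4 of 4 tested and lower, summed to 381 to 8178 and 97 to 218, while Ly6g and Mpo were not tested and were at 0 in all 3 BML-260 libraries. Their part in the Kcnn4 difference was not tested.

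The denervation marker list was high in the vehicle library in which Kcnn3 was high. Its 13 genes summed to 29930, 52866 and 36640 normalized counts in vehicle and to 28859, 30805 and 36444 with BML-260, and 9 of the 13 were highest in vehicle replicate 2. Much of each sum was 1 gene, the perinatal myosin Myh8 (log2 fold change 0.17, not at the threshold). Without Myh8, a choice made after the values were seen, the sums were 12343, 24318 and 20467 in vehicle and 7951, 9098 and 8693 with BML-260, which did not overlap. The sums of all 13 genes did overlap, so nothing is read from the separation without Myh8. Of the 13, 8 met the threshold, all lower with BML-260, among them Chrna1, the acetylcholine receptor alpha subunit (log2 fold change -1.50), Ncam1 (-1.34), Runx1 (-2.57) and Sln (-4.06), each with an edgeR adjusted p between 0.553 and 0.699. Hdac9 (0.055), Hdac4 (-0.33), Chrnd (-1.20), Chrng (-1.70) and Myh8 did not meet the threshold. DESeq2 called 6 of the 13 at an adjusted p under 0.05 and limma voom 0. Sarcolipin (Sln), an inhibitor of the calcium pump, had 184, 3210 and 1216 normalized counts in vehicle and 81.2, 138 and 57.4 with BML-260, with vehicle replicates 2 and 3 far above the rest. Kcnn3 was high in replicate 2 alone. Whether the denervation genes have a part in its difference was not tested.

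**Figure D3:**
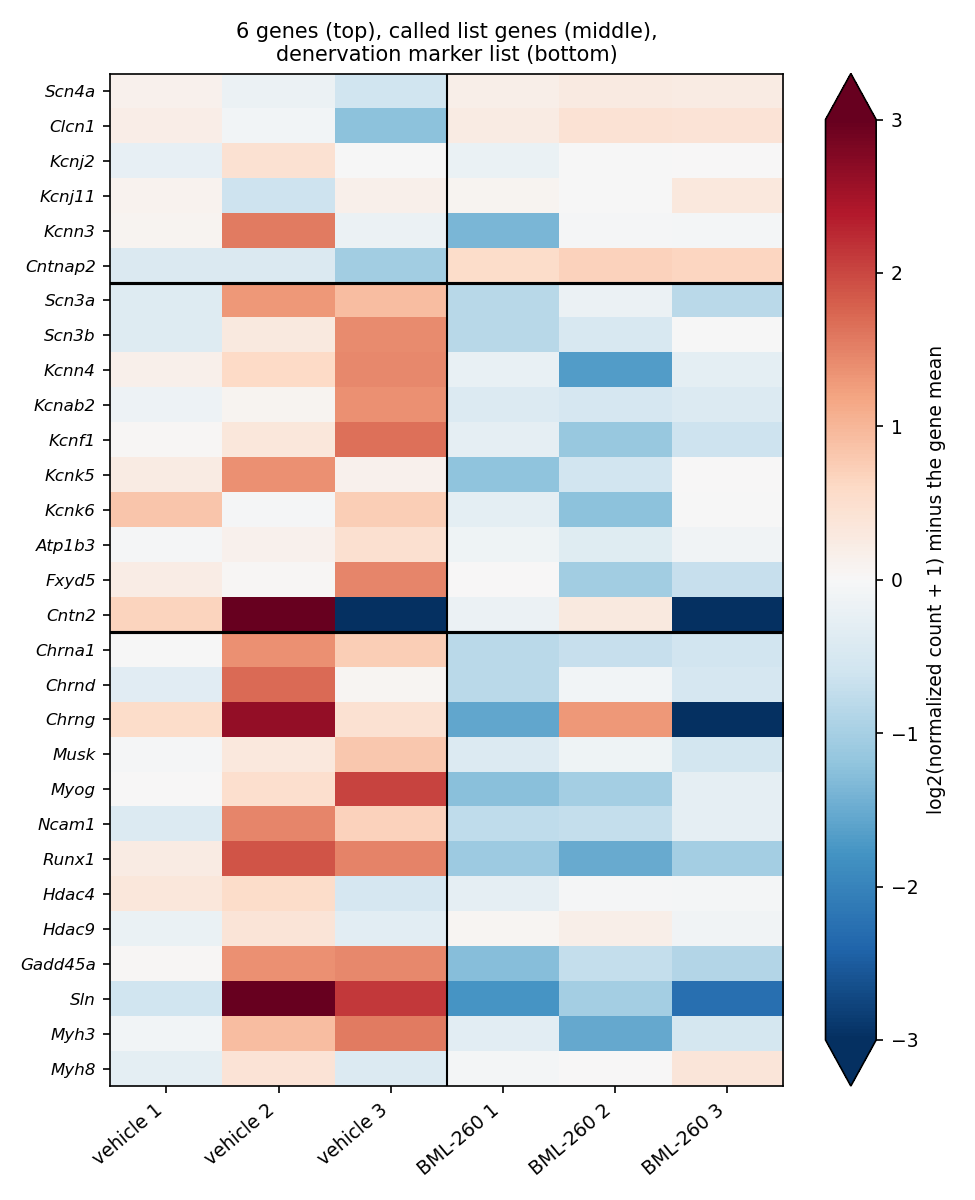
Log2(normalized count + 1) minus the gene's mean over the 6 libraries (color, cut at 3 in each direction) for the 6 genes, the 10 list genes that met the threshold and the 13 denervation markers. Kcnn3 and Sln are highest in vehicle replicate 2, while Scn4a, Clcn1 and Cntnap2 are lowest in vehicle replicate 3.

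The voltage-gated potassium channel list, which repolarizes the membrane, had 42 genes, of which 27 were tested. Kcnf1, a silent subunit that modifies other channels, and Kcnab2, a cytoplasmic beta subunit, met the threshold and were lower, with log2 fold changes of -1.49 (SE 0.43) and -1.08 (SE 0.47). Kcnf1 had 214, 264 and 652 normalized counts in vehicle and 173, 94 and 134 with BML-260, met the threshold in 15 of 15 alternatives and had an adjusted p of 0.699 in edgeR. Its value was -0.84 without vehicle replicate 3, where Kcnab2 came to -0.43 and lost the threshold, which it met in 7 of 15. The 3 genes with the most TPM in the list, Kcna7, Kcnc4 and Kcnc1, all pore subunits, had log2 fold changes of 0.36, 0.23 and 0.36 (SE 0.26, 0.24 and 0.34), and each came under 0.10 without vehicle replicate 3.

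The channels named for their pair of pore domains (Kcnk genes) carry background potassium current, and 6 of the 10 genes listed were tested. Kcnk5 (log2 fold change -1.22, SE 0.44) and Kcnk6 (-1.01, SE 0.42) met the threshold, both lower with BML-260, with adjusted p values of 0.788 in edgeR. Kcnk5 had 117, 258 and 108 normalized counts in vehicle and 42.3, 66 and 100.2 with BML-260, was highest in vehicle replicate 2 as Kcnn3 was, and came to -0.70 without that library, where it no longer met the threshold. Kcnk5 met it in 12 of the 15 alternatives and Kcnk6 in 9. Kcnk2, a mechanically gated member of the family, did not meet the threshold, at 0.51 (SE 0.25), though its groups did not overlap (57.2 to 76.3 in vehicle and 85.5 to 102.8 with BML-260).

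The sodium pump list, whose genes encode the subunits and regulators of the sodium-potassium pump, had 14 genes, of which 12 were tested. Atp1b1, the main beta subunit here with 62.2% to 80.0% of the beta TPM, had a log2 fold change of 0.41 (SE 0.27), and its normalized counts overlapped between the groups, at 7957, 9458 and 4582 in vehicle and 8780, 11493 and 8989 with BML-260. Vehicle replicate 3 was the lowest, as for Scn4a and Clcn1. The regulators Fxyd1 (phospholemman) and Fxyd6 had log2 fold changes of 0.15 (SE 0.15) and -0.060 (SE 0.18). The beta subunit Atp1b3 (-0.40, SE 0.17) and the regulator Fxyd5 (-1.24, SE 0.44) met the threshold, both lower and with adjusted p values of 0.788 in edgeR. Without vehicle replicate 3 they came to -0.25 and -0.64, and neither met it. Of the 15 alternatives, Atp1b3 met it in 7 and Fxyd5 in 10.

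Cntnap2 encodes Caspr2, a neurexin-family adhesion protein that gathers Kv1 potassium channels beside the nodes of myelinated axons. It had 104, 104 and 67.3 normalized counts in vehicle and 207, 228 and 221 with BML-260. Every BML-260 library was above every vehicle library, the nearest being 207 and 104, and the gap between the groups was wider than the range within either. The log2 fold change was 1.25 (SE 0.24), a fold of 2.38, with means of 91.8 ± 21.2 and 219 ± 10.5 (SD, n = 3 each). It stayed between 1.07 and 1.36 with each library left out, and TPM gave the same separation (1.04, 1.01 and 0.943 against 1.91, 2.37 and 2.32). The level is low, at 82 to 240 raw counts a library.

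Values for the gene that shares its span and for neural cells stand beside those of Cntnap2. The pseudogene Rbpj-ps3 inside its span had 113, 121 and 189 normalized counts in vehicle and 124, 136 and 134 with BML-260, highest in the library where Cntnap2 was lowest. Neuron markers were close to absent: of 7 genes, Rbfox3, Nefl and Nefm were at 0 in every library, and the list summed to 19.1 to 31.5 normalized counts in vehicle and 29.3 to 38 with BML-260, most of it Tubb3. Schwann cell markers summed to 1883 to 6017 in vehicle and 2436 to 2727 with BML-260, with 0 of 9 at the threshold (0 with an unadjusted p under 0.05 in edgeR, 0 adjusted in DESeq2 and limma voom). Whether reads of Rbpj-ps3, neurons or Schwann cells have a part in the Cntnap2 difference was not tested.

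Kcna1 and Kcna2 encode the Kv1 channels that Caspr2 is known to gather. Kcna1 had 114, 188 and 471 normalized counts in vehicle and 153, 233 and 194 with BML-260, and Kcna2 106, 155 and 363 in vehicle and 185, 149 and 219 with BML-260, both highest in vehicle replicate 3. These 2 genes did not meet the threshold, with log2 fold changes of -0.42 (SE 0.46) for Kcna1 and -0.18 (SE 0.42) for Kcna2. In the list of adhesion and scaffold partners, 22 of 28 genes were tested and 1 met the threshold, Cntn2, the axonal partner of Caspr2. Its 419 normalized counts in vehicle replicate 2 against 0 to 13.3 in the other 5 libraries made the difference: the log2 fold change of -4.58 (SE 1.85) came to -0.16 without that library. The 3 partners with the most TPM were the ankyrins Ank1 and Ank3 and the scaffold Dlg1, with log2 fold changes of 0.43 (SE 0.27), -0.41 (SE 0.26) and 0.26 (SE 0.14).

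Over all 8 lists together, 103 of 150 genes were tested, and 10 had no count in any library. The log2 fold changes had a median of -0.039, with 47 above 0 and 56 below, against -0.0039 over all genes. The threshold was met by 10 genes, all lower with BML-260, or 9.71% of the tested list genes beside 5.75% of all genes (4.86% lower and 0.896% higher). No list gene had an adjusted p under 0.05 in edgeR (10 had an unadjusted p under 0.05), nor in DESeq2 or limma voom. Of all genes, edgeR called 0 at an adjusted p under 0.05 (0.0%, with 966 or 5.97% at an unadjusted p under 0.05), DESeq2 95 (0.588%) and limma voom 1. Leaving out vehicle replicate 3 gave 6 list genes, 2 of them higher, leaving out BML-260 replicate 1 gave 5, leaving out BML-260 replicate 2 gave 2 and leaving out vehicle replicate 1 gave 18.

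**Figure D4:**
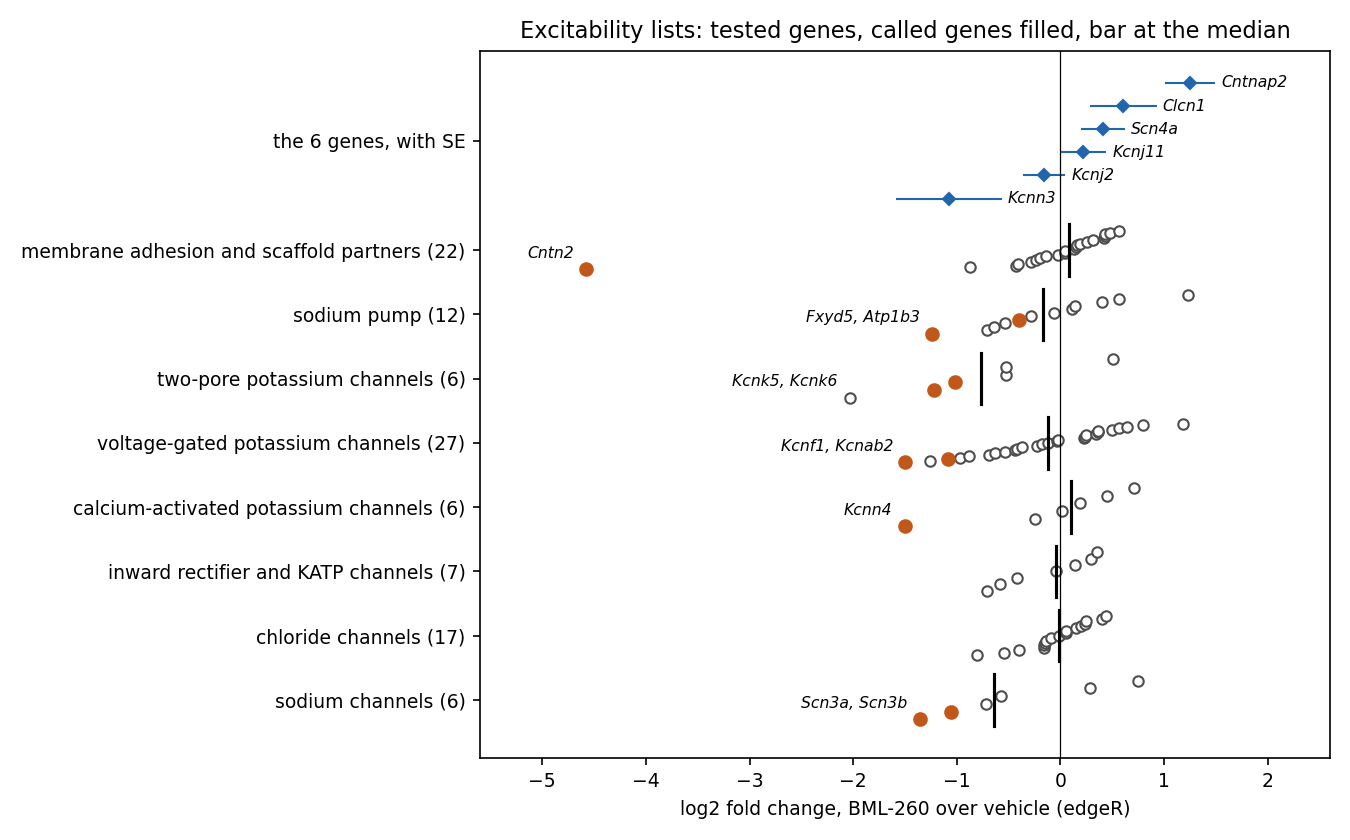
Log2 fold change, BML-260 over vehicle, of every tested gene in the 8 lists (number tested in parentheses), with filled points for genes at the fold and p threshold, named beside their list, and a bar at each list's median. The top rows give the 6 genes with their SE, and the 10 filled points all lie below 0.

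The called list genes reached at most 1891 normalized counts (Atp1b3 in vehicle replicate 3), whereas Scn4a, Scn4b and Abcc9 had at least 4750 in each library (Scn4b in vehicle replicate 3). For 6 of the 6 genes described first, the SD of the log2 normalized counts was larger in vehicle than with BML-260, as it was for 70.3% of all tested genes. For Scn4a it was 0.358 against 0.0446 and for Clcn1 0.764 against 0.101, whereas for Kcnn3 it was 0.935 against 0.769. In normalized counts, vehicle replicate 3 (size factor 1.34) was lowest for Scn4a, Clcn1 and Cntnap2, as it was for 31.1% of all tested genes. Vehicle replicate 2 was highest for Kcnj2 and Kcnn3. This depended in part on the scaling. In TPM, Scn4a was lowest in vehicle replicate 2 (87.4, against 95.5 in replicate 3). Kcnj2 was highest in vehicle replicate 3 (48.4 TPM, against 46.3 in replicate 2). For Clcn1 and Kcnn3 the same library stood out in TPM. Cntnap2 was still lowest in vehicle replicate 3, but narrowly, at 0.943 TPM against 1.04 in replicate 1 and 1.01 in replicate 2.

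**Figure D5:**
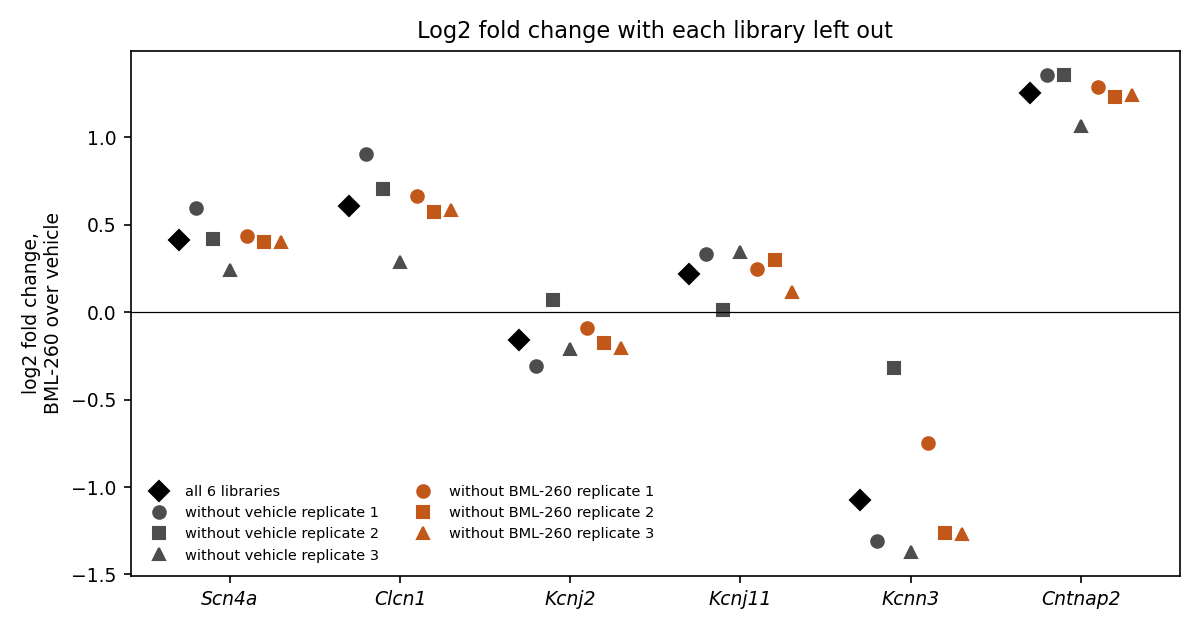
Log2 fold change, BML-260 over vehicle, of the 6 genes with all libraries (black diamond) and with each library left out (grey for vehicle, orange for BML-260). Cntnap2 stays between 1.07 and 1.36, while Kcnj2 turns from -0.16 to 0.070, and Kcnn3 moves from -1.08 to -0.32, when vehicle replicate 2 is left out.

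The profile of each gene over the 6 libraries was set beside those of 13637 tested genes with curated names, by the root mean square distance of log2 normalized counts centred on each gene's mean. The nearest to Scn4a were Enoph1, Bves and Hif1an, at distances of 0.041, 0.042 and 0.044, and 128 genes lay within 0.1 of it. Clcn1 was nearest to Scarna13, Trim55 and Camk2a (0.065, 0.072 and 0.083), Kcnj2 to Srbd1, Ube2e2 and Mir6935 (0.034, 0.040 and 0.052), and Kcnj11 to Col23a1, Dusp26 and Snhg10 (0.058, 0.067 and 0.071). No gene lay within 0.1 of Kcnn3 or Cntnap2, whose own root mean square deviations from their means were the largest of the 6 (0.85 and 0.67). Those of Scn4a, Clcn1, Kcnj2 and Kcnj11 were 0.30, 0.58, 0.23 and 0.30. The distance was not scaled for this deviation, so the numbers of near genes cannot be compared between the 6 genes. Kcnn3 was nearest to Kcnk5, the background potassium channel described above, at 0.281, followed by Batf (0.331) and Tmem158 (0.357), and Cntnap2 was nearest to Pcdh12, Kazald1 and Fam205a4 (0.141, 0.162 and 0.198). Among the 6 genes themselves the closest pair was Scn4a with Clcn1, at 0.287, and the most distant was Kcnn3 with Cntnap2, at 1.27. These distances describe the same 6 libraries and include the difference between the groups.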

How the data were processed

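RNA-Seq of TA muscle was carried out on 3 vehicle and 3 BML-260 mice, 1 library per mouse from total RNA with a stranded kit. Per the labels, the authors used Trimmomatic 0.38 for trimming, Bowtie2 2.3.4.1 and HISAT2 2.1.0 on mm10, and StringTie 2.1.3b. The authors deposited raw counts per gene (no normalization) and TPM values, scaled for length and library total; the counting rule, strand setting and annotation are not given in the sources used here. The TPM tables list 16800 genes, all with a count in every library.

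Genes were kept by filterByExpr (99.9% of counts), scaled by TMM and tested with edgeR 4.0.16 in R 4.3.3 (quasi-likelihood F-test, Benjamini-Hochberg adjustment over all tested genes). SE is the log2 fold change divided by the square root of F. Normalized counts use DESeq2 1.42.0 size factors. Alternatives were RLE and upper quartile scaling, other count filters (1 in total, or 10 in every library), a replicate block, each library left out, DESeq2, limma 3.58.1 voom, and limma on log2(TPM + 1) or log2(TPM + 0.1). Limma voom was run with sample quality weights wherever it is named. The libraries held between 39522890 and 56998875 counts. The SD values given are between mice and were not divided into counting error and other variation.

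The 6 genes and all lists were chosen with earlier results of these data known. Named list genes are the 3 with the most TPM in each list and all at the threshold, and each of the 6 genes has its 3 nearest genes. Some listed genes are not reported here, and the list tallies were made without them. Kcna1 and Kcna2, the pseudogene Rbpj-ps3 and Fam131b were named after their values were seen. RefSeq GRCm38.p6 held 45679 of the 45777 identifiers.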

Additional observations from a re-analysis of the deposited data

How the results depend on the processing

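With 3 mice a group, small differences in these genes could have been missed, and no detection limit was worked out. The 6 genes kept their sign in all 15 alternatives except Kcnj2 (0.070 without vehicle replicate 2), and Cntnap2 had its lowest value, 0.68, with log2(TPM + 1). The count of all genes at an adjusted p under 0.05 (0) was 1 with no filter, with at least 10 counts in every library and with limma voom, 95 with DESeq2, and 0 to 9 with single libraries left out. The 931 genes at the fold and p threshold came to 1416 with no filter, 446 with log2(TPM + 1), and 503 to 2223 with single libraries left out (2223 without vehicle replicate 1, 503 without BML-260 replicate 2). The 10 list genes came to 4 with log2(TPM + 1) and 2 to 18 with single libraries left out (18 without vehicle replicate 1, 6 without vehicle replicate 3, 5 without BML-260 replicate 1 and 2 without BML-260 replicate 2). Limma voom with sample quality weights gave 255 higher and 635 lower genes, and in the lists 3 higher and 4 lower. The cause of these shifts was not tested. The median over all genes was -0.0039, and -0.089 and -0.14 with log2(TPM + 1) and log2(TPM + 0.1).

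Signs turned for genes near 0: Abcc9 (-0.0043 and -0.0044), Fxyd1 (-0.018 and -0.018) and Kcnma1 (-0.047 and -0.043) in the 2 TPM fits, and Kcnma1 with upper quartile scaling (-0.0088) and without single libraries (-0.17 to 0.26). With single libraries left out, Kcnn2 ran from -0.032 (without vehicle replicate 3) to 1.27 and Fxyd6 from -0.16 to 0.13, and Fxyd6 was 0.091 with limma voom.

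The labels do not say whether libraries with the same replicate number were linked in any way. The correlations of their deviations from the group means were 0.13, 0.043 and 0.096, and every library correlated best with its own number. With the replicate number as a block, 1057 genes and 12 list genes met the threshold, 326 of the 1057 higher.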
